A study of Homo sapiens with 6 samples.

Results

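The EGF receptor family and its ligands were followed in a human podocyte cell line through 9 genes, taken by symbol from the 38648 genes listed for each library. The receptors were EGFR, ERBB2 and ERBB3, and the ligands were HBEGF, AREG, EREG, TGFA, BTC and NRG1. The line, HPC, is labelled human podocyte and of WT genotype, and was grown in RPMI-1640 medium with fetal bovine serum. All 6 libraries are from cells in high glucose, 3 with a negative control (NC) lentivirus and 3 with a lentivirus made to overexpress PRDM16, a zinc finger transcription factor, and all titles give 24 h. How much glucose was added, which promoter the lentivirus carries and whether the line is 1 clone is not given in the sources used here. Cells in normal glucose were not analysed here, and each comparison sets one lentivirus against the other within high glucose. Since nothing in the labels ties the libraries to separate cultures, the p-values reflect the spread between these samples alone, which may be technical.

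EGF family receptors are membrane tyrosine kinases that pair up when a ligand binds and then signal through the RAS-MAPK and PI3K-AKT cascades. EGFR is bound by HBEGF, AREG, EREG, TGFA and BTC, ERBB3 by NRG1, and ERBB2 has no known soluble ligand of its own and serves as the favoured partner of the others. The ligands are made as membrane proteins and are cut loose by ADAM proteases. In the kidney, EGFR is found in podocytes and tubular cells, and HBEGF made in injured glomeruli is known to act on podocyte EGFR.

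Of the 9 genes, TGFA, HBEGF and EGFR had the most transcripts per length in these libraries and BTC the fewest. None of the 9 genes differed between the lentiviruses past the adjusted threshold. EGFR was lower in all 3 PRDM16 libraries than in all 3 NC libraries, at 0.882-fold, and ERBB2 was higher in all 3, at 1.14-fold, a separation of groups found in 21.0% of all genes tested. With the trend of fold changes along gene length and GC content removed, the groups overlapped in EGFR and stayed apart in ERBB2. The share of all genes with groups apart after that step is not given here. The share of EGFR in the summed receptor transcripts was 57.5% ± 2.35 with NC and 52.1% ± 2.13 with PRDM16 (SD, n = 3). This share was singled out after the values were seen and was not tested.

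The genes lie at separate places in the genome, apart from 3 ligands that are neighbours on chromosome 4. EREG (74365145 to 74388749, plus strand), AREG (74445136 to 74455005, plus strand) and BTC (74744759 to 74794718, minus strand) follow each other there, in the hg38 coordinates of the deposited tables. EGFR lies on chromosome 7 at 55019017 to 55211628 (plus strand), ERBB2 on chromosome 17 at 39688094 to 39728660 (plus strand) and ERBB3 on chromosome 12 at 56080108 to 56103505 (plus strand). HBEGF lies on chromosome 5 at 140332843 to 140346603 (minus strand) and TGFA on chromosome 2 at 70447284 to 70553826 (minus strand). NRG1 is on another chromosome. Each gene was listed at 1 place only. Exons of EGFR, ERBB2 and ERBB3 overlap exons of other genes on the opposite strand, and the strand setting of the counting is not given, so reads in the shared bases cannot be told apart. The shared bases are 151 of ERBB2 (2.36% of its listed length), shared with MIEN1, 948 of ERBB3 (15.5%), shared with LOC105369782, and 186 and 192 of EGFR (1.63% and 1.68%), shared with EGFR-AS1 and LOC105375284. MIEN1 had 1478 to 3121 counts per library, whereas the partners of EGFR had at most 26 and that of ERBB3 at most 1.

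The start regions of the receptor and ligand genes, from which their transcripts are read, differed in base composition and motifs. RefSeq promoters (GRCh38.p14) were matched for 7 of the 9 genes by symbol, and ERBB3 and NRG1 were not matched. EGFR and TGFA each have 2 starts in the table, and the values are those of the outermost start unless said otherwise. In the 250 bases before the start, GC content was 73.6% at EGFR, 76.4% at HBEGF and 75.6% at TGFA, against a median of 58% over 35116 promoters. It was 65.6% at ERBB2, 65.2% at AREG, 62% at BTC and 58% at EREG. The second starts had 38.8% at EGFR and 64% at TGFA. Part of these stretches is annotated as exon in GENCODE. At the outermost starts this holds for all 250 bases at ERBB2 (exons of ERBB2 and PGAP3), 189 at TGFA and 163 at BTC. It holds for 28 or fewer at EGFR, HBEGF, AREG and EREG. The matched BTC start lies inside the listed coordinates of the gene. The 90 bases from 100 to 11 bases before the start of EGFR (chr7:55018917-55019006), AREG (chr4:74445036-74445125) and EREG (chr4:74365045-74365134), all on the plus strand, are printed 5′ to 3′ to set a GC-rich receptor start beside those of the neighbouring ligands. Capitals mark matches to the motifs searched on both strands.
EGFR: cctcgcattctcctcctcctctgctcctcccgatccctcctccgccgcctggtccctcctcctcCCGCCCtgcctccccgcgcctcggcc
AREG: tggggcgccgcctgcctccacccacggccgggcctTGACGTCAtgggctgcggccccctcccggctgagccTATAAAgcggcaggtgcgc
EREG: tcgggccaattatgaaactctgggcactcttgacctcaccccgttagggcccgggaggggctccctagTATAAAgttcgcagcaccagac
The motif in the EGFR window is the SP1 box (GGGCGG, here on the minus strand), which 42.6% of all promoters hold in the 250 bases before the start. AREG and EREG each hold a TATA box (TATAAA, in 10.7% of all promoters), 29 to 24 bases before the start of AREG and 32 to 27 before that of EREG. AREG also holds a cyclic AMP response element (TGACGTCA, in 1.65% of all promoters) 65 to 58 bases before its start. In the full 250 bases EGFR had 2 SP1 boxes, HBEGF 5, TGFA 3 and AREG 1. The second EGFR start had 2 TATA boxes and 2 AP-1 sites, and the second TGFA start had a match to none of the motifs. ERBB2 had 1 AP-1 site (TGANTCA, in 6.57% of all promoters), and BTC had a match to none of the 4 motifs. These are matches of letters and were not tested as sites.

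Libraries held between 20147135 and 41280350 gene counts, and 3 counts, used as the floor where a gene has none, equal 0.0727 to 0.149 CPM (counts per 1000000). PRDM16 had 0 counts in each NC library and 11, 18 and 24 in the PRDM16 libraries. That is 0.598 ± 0.0422 CPM with PRDM16 (SD, n = 3), under the 1 CPM used for the markers below. NC library 2 stood apart, with a chi-square per degree of freedom of 30.8 to 75.6 against every other library, where the other pairs gave 11.1 to 29.2. Log2 fold changes of single genes were higher in genes of higher GC content (Spearman's rho = 0.639 over 13892 genes) and were lower in longer genes (rho = -0.392 over 15381 genes). Genes are not independent replicates, and no p is given. Fold changes are therefore given also with this length and GC trend removed and without NC library 2. Of 8 podocyte markers 3 exceeded 1 CPM over the libraries (PODXL, SYNPO and CD2AP), while the slit diaphragm gene NPHS1 had at most 3 counts and WT1 at most 4. Of the markers of other cells, 1 of 6 tubular, 1 of 4 endothelial, 3 of 5 fibroblast and mesangial and 1 of 4 leukocyte genes exceeded 1 CPM, with LRP2, UMOD, KDR and CD3E at 0. Summed podocyte markers stood at 322 to 411 CPM with NC and 288 to 317 with PRDM16. The leukocyte list, nearly all from the lysosomal protein gene CD68, stood at 136 to 162 and 177 to 182 CPM. The sums were 352 to 433 and 388 to 409 CPM for the fibroblast and mesangial list, 3.30 to 3.60 and 2.94 to 3.37 for the tubular list and 2.08 to 2.59 and 2.29 to 2.87 for the endothelial list. The part of these sums in the results was not tested.

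Levels were compared between genes in TPM (transcripts per 1000000, which corrects for listed length), over all 6 libraries. TGFA, a ligand of EGFR first found as a transforming factor, stood highest, at 123 ± 12.3 TPM (SD, n = 6), above 90.5% of the tested genes. HBEGF, the heparin-binding ligand, was at 71.0 ± 7.85 TPM and EGFR at 63.3 ± 10.1 TPM. ERBB2, the ligandless partner receptor, was at 40.7 ± 2.32 TPM. The ligand AREG, amphiregulin, followed at 25.1 ± 4.61 TPM. Near the median of the tested genes stood NRG1, neuregulin, with 13.6 ± 1.60 TPM (above 52.6% of them), and ERBB3, the receptor with little kinase activity of its own, with 11.0 ± 2.00 TPM (above 48.2%). NRG1 has the longest listed length of these genes, 19608 bases, and its place in this order rests on that length. In CPM, which does not correct for length, NRG1 averaged 100.5 with NC and 93.2 with PRDM16. HBEGF had 61.3 and 61.1 CPM, and AREG 11.2 and 11.5. EREG, epiregulin, was at 5.98 ± 1.53 TPM. BTC, betacellulin, was lowest at 1.93 ± 0.579 TPM, above 20.9% of the tested genes.

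**Figure D1:**
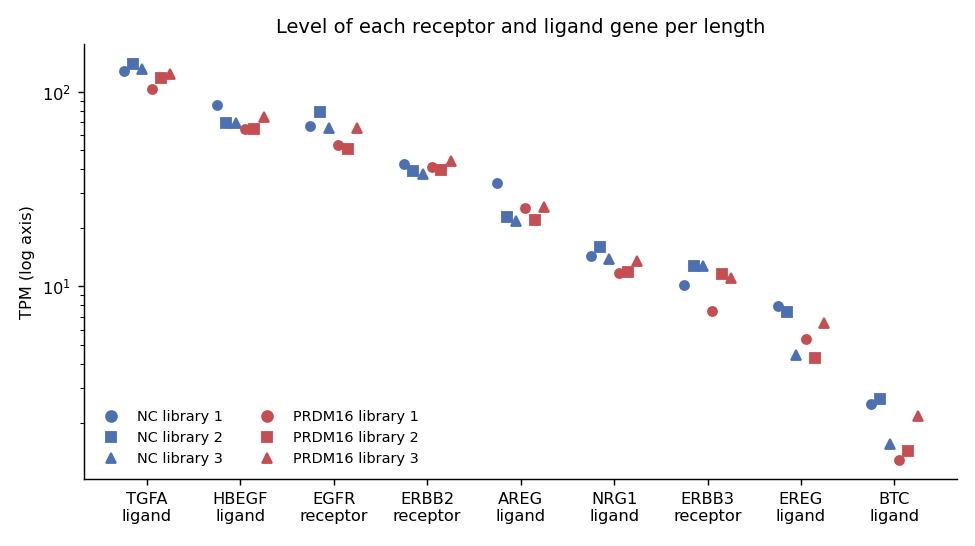
TPM (log axis) of each receptor and ligand gene in the 3 NC (blue) and 3 PRDM16 (red) libraries, with circles, squares and triangles for libraries 1, 2 and 3 of a group. TGFA lies between 103 and 139 TPM and BTC between 1.29 and 2.64, and the order of the genes is nearly the same in every library.

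Most neighbours in this order kept apart in each library. TGFA exceeded HBEGF by 1.49- to 2.01-fold, EGFR exceeded ERBB2 by 1.29- to 2.00-fold, ERBB2 exceeded AREG by 1.26- to 1.81-fold, AREG exceeded NRG1 by 1.42- to 2.36-fold and EREG exceeded BTC by 2.80- to 4.16-fold, with no overlap in range within any of these pairs. HBEGF and EGFR were not separated: HBEGF was higher in 5 of 6 libraries, at 0.880 to 1.27 times EGFR. NRG1 was above ERBB3 in each library (1.03- to 1.58-fold) and ERBB3 above EREG (1.28- to 2.87-fold), but the ranges over libraries overlapped in both pairs. Between libraries, the highest TPM of ERBB2 was 1.16 times its lowest and that of BTC, on 43 to 138 counts, 2.04 times.

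Of the family members outside the 9 genes, none reached the level needed for a test. The receptor ERBB4 had 0 or 1 count per library and EGF, the founding ligand, 1 to 15. EPGN had 0 to 3 counts, NRG2 6 to 10, NRG3 0 in every library (a floor of 0.0727 to 0.149 CPM) and NRG4 2 to 7. Of the 4 receptor genes of the family, the libraries thus held EGFR, ERBB2 and ERBB3 at levels that could be tested, with the fourth under the floor of 3 counts.

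The question for the lentiviruses was whether transcripts of the receptors and ligands differed with the lentivirus made to overexpress PRDM16. The PRDM16 transcript itself averaged 0.598 CPM in those libraries. All 9 genes passed the filter on low counts. In the edgeR quasi-likelihood test 0 of 9 passed an adjusted p of 0.05, where 10 of all 15381 genes did (0.0650%). DESeq2 also called 0 of 9 (48 of 16072 genes, 0.299%), and limma-voom 0 of 9 (4 of 15381, 0.0260%). At an unadjusted p under 0.05 in edgeR there were again 0 of 9, against 16.0% of all genes. The log2 fold change was below 0 in 7 genes and above 0 in 2, ERBB2 and AREG, with a median of -0.11 against -0.02 over all genes. The median size, regardless of sign, was 0.11 against 0.19 over all genes. With the length and GC trend removed the median was -0.04 (0.0052 over all genes with a GC value), and without NC library 2 it was -0.08 (-0.01 over all genes). The groups did not overlap in CPM in 3 of 9 genes, EGFR, ERBB2 and NRG1, where 21.0% of all genes had groups apart. In bulk libraries fewer cells of a type and less RNA per cell cannot be told apart.

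**Figure D2:**
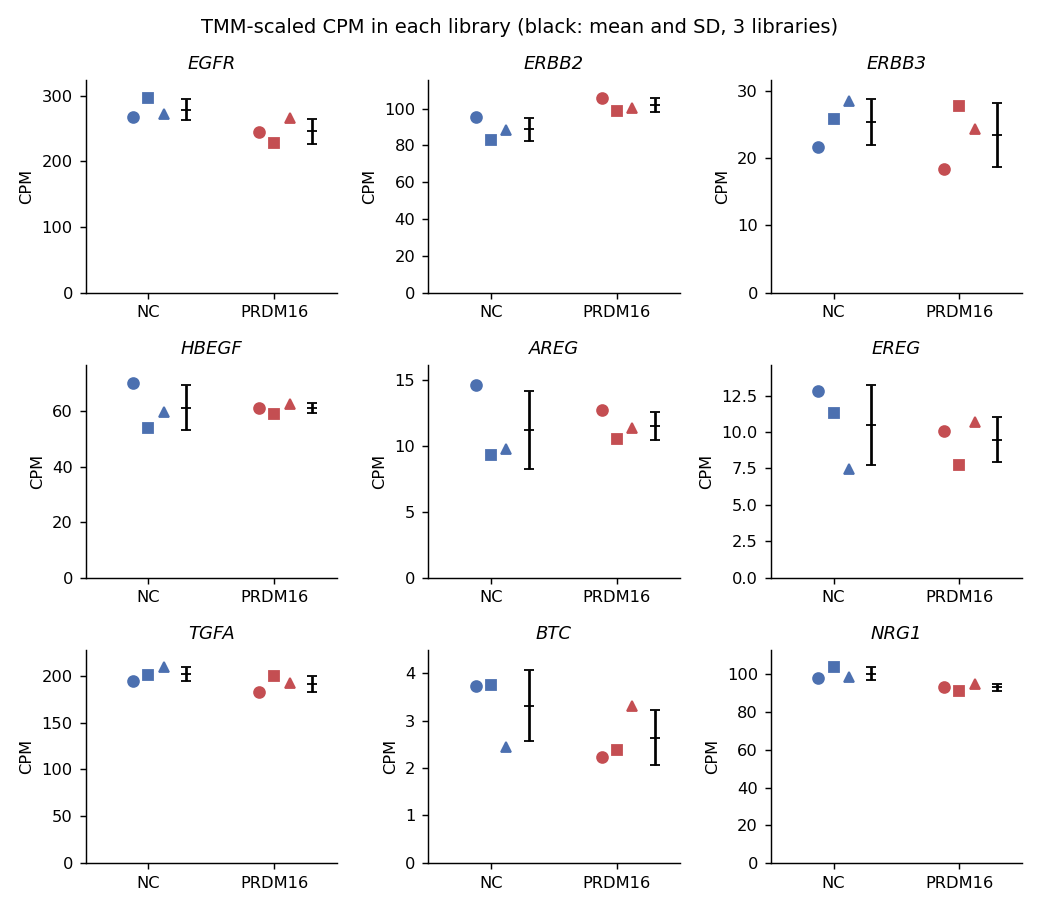
TMM-scaled CPM (linear axes from 0) of each gene in the NC (blue) and PRDM16 (red) libraries, with circles, squares and triangles for libraries 1, 2 and 3, and the mean ± SD of 3 libraries in black. The groups are apart in EGFR (228 to 266 with PRDM16, 268 to 297 with NC), ERBB2 and NRG1, and overlap in the other 6 genes.

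Among the receptors, EGFR and ERBB2 differed in opposite directions, neither past the threshold. EGFR, the receptor of most of these ligands, had 268, 297 and 273 CPM (scaled by TMM, the trimmed mean of M values used for the test, as are all CPM here) in NC libraries 1, 2 and 3. In PRDM16 libraries 1, 2 and 3 it had 245, 228 and 266 CPM. Every PRDM16 library was lower than every NC library, although PRDM16 library 3 came close to NC library 1. The means were 279 ± 15.7 and 246 ± 19.3 CPM (SD, n = 3). EGFR thus had a log2 fold change of -0.18 ± 0.11 (SE; 95% interval -0.42 to 0.05, edgeR adjusted p = 0.386). With the length and GC trend removed the change was -0.14 and the groups overlapped, and without NC library 2, the highest, it was -0.13. With both steps together it was -0.07.

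ERBB2 had 95.5, 82.9 and 88.3 CPM in the NC libraries. In the PRDM16 libraries it had 106, 98.6 and 100.4 CPM, each above the highest NC value. The means were 88.9 ± 6.31 and 102 ± 3.82 CPM (SD, n = 3; log2 fold change 0.19 ± 0.11 SE, 95% interval -0.03 to 0.42, edgeR adjusted p = 0.348). With the trend removed the difference was 0.09, with the groups still apart, and without NC library 2, the lowest, it was 0.15. How many of all genes stay apart with the trend removed is not given here. ERBB2 is the most GC-rich of the 9 transcripts, at 60.0%, against 54.1% for EGFR.

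ERBB3 had 21.7, 25.9 and 28.5 CPM in the NC libraries. The PRDM16 libraries had 18.4, 27.8 and 24.3 CPM, so that the groups overlapped widely and PRDM16 library 1 was the lowest of all. The log2 fold change was -0.11 ± 0.15 (SE; 95% interval -0.41 to 0.19, edgeR adjusted p = 0.688), and without PRDM16 library 1 it was 0.04. The interval still allows a difference of 0.752- to 1.14-fold.

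The balance between EGFR and ERBB2 separated the groups of libraries. The pair was chosen after its values were seen, so the balance is a description with no test. In CPM each gene already had its groups apart, in opposite directions, so the difference as scaled had to separate them too. As shares of the same sum, those of EGFR and ERBB2 largely mirror each other. EGFR made up 55.9%, 60.2% and 56.3% of the summed receptor TPM in the NC libraries. With PRDM16 its share was 52.2%, 49.9% and 54.2%, below every NC library. The share of ERBB2 was 35.6%, 30.0% and 32.6% with NC. With PRDM16 it was 40.5%, 38.7% and 36.6%, above every NC library. ERBB3 held 9.77% ± 1.27 with NC and 9.32% ± 2.02 with PRDM16 (SD, n = 3), with overlapping groups. EGFR thus remained the most abundant receptor transcript in all 6 libraries, at 1.77 ± 0.220 times ERBB2 with NC and 1.35 ± 0.111 times with PRDM16 in TPM. On the log2 CPM scale EGFR minus ERBB2 was 1.49, 1.84 and 1.63 with NC and 1.21, 1.21 and 1.41 with PRDM16. With the length and GC trend removed these were 1.49, 1.70 and 1.53 against 1.30, 1.29 and 1.46, with the groups still apart. The summed TPM of the 3 receptors ranged from 101 to 131 over the libraries.

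**Figure D3:**
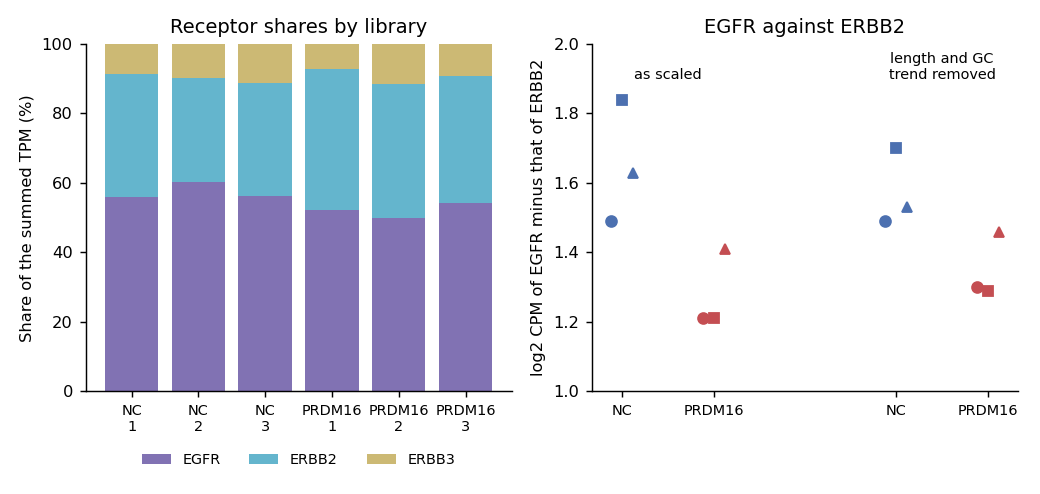
Left, share of EGFR, ERBB2 and ERBB3 in the summed receptor TPM (percent, bars from 0 to 100) in each library. Right, log2 CPM of EGFR minus that of ERBB2 in NC (blue) and PRDM16 (red) libraries, with circles, squares and triangles for libraries 1, 2 and 3, as scaled and with the length and GC trend removed (axis from 1 to 2). The PRDM16 libraries lie below the NC libraries, with means of 1.27 against 1.65 as scaled and 1.35 against 1.58 with the trend removed.

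Among the ligands that bind EGFR, none differed past the threshold and all had overlapping groups in CPM. TGFA had 195, 201 and 209.7 CPM in the NC libraries. With PRDM16 it had 183, 199.8 and 193 CPM, 2 of them below every NC library. In TPM its groups were apart, at 127, 139 and 131 with NC and 103, 117 and 123 with PRDM16. The share of all genes with groups apart in TPM is not given here. The log2 fold change was -0.07 ± 0.11 (SE; 95% interval -0.30 to 0.15, edgeR adjusted p = 0.723). With the length and GC trend removed it was -0.20 ± 0.08, with an edgeR adjusted p of 0.749 and an unadjusted p of 0.0350. TGFA was the 1 gene of 9 under an unadjusted 0.05 in that fit, where 6.55% of all genes were.

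HBEGF had 70.2, 54.0 and 59.9 CPM in the NC libraries. The PRDM16 libraries, at 61.1, 59.2 and 62.8 CPM, lay inside that range, with NC library 1 the highest and NC library 2 the lowest. Its log2 fold change was -0.0058 ± 0.12 (SE; edgeR adjusted p = 0.982), and the 95% interval of -0.25 to 0.24 leaves room for 0.841- to 1.18-fold. AREG showed a like arrangement. It had 14.6, 9.30 and 9.75 CPM with NC and 12.7, 10.5 and 11.3 with PRDM16, again with NC library 1 highest and NC library 2 lowest. The log2 fold change of AREG was 0.03 ± 0.16 (SE; 95% interval -0.31 to 0.37, edgeR adjusted p = 0.924). It was 0.26 without NC library 1 and -0.08 without NC library 2, so its direction rested on single libraries.

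EREG and BTC were the lowest ligands, and in both, NC library 3 was the lowest NC library and NC libraries 1 and 2 the highest of all 6. EREG had 12.8, 11.3 and 7.49 CPM with NC and 10.1, 7.72 and 10.7 with PRDM16. The log2 fold change was -0.15 ± 0.18 (SE; 95% interval -0.54 to 0.23, edgeR adjusted p = 0.645). Leaving out NC library 3 gave -0.34, leaving out NC library 1 gave -0.0027, and removing the length and GC trend gave 0.06. EREG is the most AT-rich of the 9 transcripts, with 36.1% GC.

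BTC had 3.73, 3.75 and 2.45 CPM with NC and 2.24, 2.37 and 3.30 with PRDM16. At -0.32 ± 0.22 (SE; 95% interval -0.77 to 0.13, edgeR adjusted p = 0.419) its log2 fold change was the furthest from 0 of the 9, and its interval the widest. It was -0.14 with the trend removed, -0.21 without NC library 2 and -0.53 without PRDM16 library 3, the highest of the PRDM16 libraries.

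NRG1, the ligand of ERBB3, had 98.3, 104 and 98.8 CPM in the NC libraries. In the PRDM16 libraries it had 93.1, 91.5 and 95.0 CPM, each below the lowest NC library. The means of 100.5 ± 3.28 and 93.2 ± 1.76 CPM (SD, n = 3) gave a log2 fold change of -0.11 ± 0.11 (SE; 95% interval -0.33 to 0.11, edgeR adjusted p = 0.573). With the length and GC trend removed the groups overlapped and the change was 0.07, on the other side of 0.

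**Figure D4:**
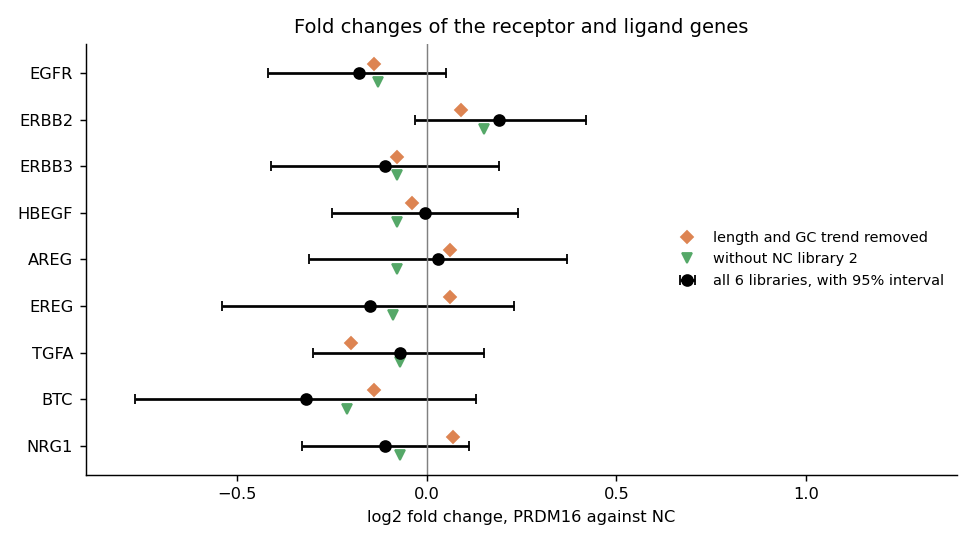
Log2 fold change (PRDM16 against NC) of each gene from edgeR with its 95% interval (black circles), with the length and GC trend removed (orange diamonds) and without NC library 2 (green triangles). All 9 black intervals include 0, and the point for ERBB2 is at 0.19, 0.09 and 0.15.

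TGFA and HBEGF were the main ligand transcripts in TPM with either lentivirus. Over the 6 libraries TGFA made up 46.9% to 54.2% of the summed ligand TPM and HBEGF 26.9% to 31.4%. AREG held 8.86% to 12.5%, NRG1 5.30% to 6.25%, EREG 1.84% to 2.93% and BTC 0.613% to 1.03%. The share of NRG1 depends on its long listed length of 19608 bases, and in CPM NRG1 was above HBEGF in each library. The groups overlapped in the share of each ligand, and the ratio of TGFA to HBEGF was 1.80 ± 0.269 with NC and 1.69 ± 0.108 with PRDM16 (SD, n = 3). The ligands summed to 271, 257 and 241 TPM with NC and 211, 220.4 and 245 with PRDM16.

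Across the 6 libraries some of the genes varied alongside each other, which is given as a description over points that share depth, length and GC trends and NC library 2. On log2 CPM, EGFR and NRG1 had a Pearson correlation of 0.95 and ERBB3 and TGFA one of 0.92. HBEGF and AREG had 0.90, and the chromosome 4 ligands EREG and BTC had 0.80, while EREG and AREG, the closest neighbours there, had 0.56. ERBB2 ran against EGFR (-0.77), NRG1 (-0.89) and TGFA (-0.79). Among 10841 genes of at least 5 CPM, those most like EGFR were FBXL4 (r = 0.994), the amino acid transporter gene SLC7A2 (0.992) and ETS1 (0.992), a transcription factor, with 128 genes above 0.95. Those most like TGFA were WBP11 (0.992), SEC14L1 (0.991) and ZNF618 (0.989), with 58 above 0.95.

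The other genes of the pathway were read from lists of 58 genes, 50 of which could be tested. In edgeR, DESeq2 and limma-voom 0 of 50 passed, with edgeR adjusted p between 0.298 and 0.992. At an unadjusted p under 0.05 there were 11, with 4 higher and 7 lower, against 16.0% of all genes, and the groups did not overlap in 10, against 21.0% of all genes. Their median log2 fold change was -0.10. It was -0.00057 with the length and GC trend removed and -0.06 without NC library 2. With the trend removed 2 of them, SPRY1 and EGR1, were under an unadjusted 0.05, against 6.55% of all genes.

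All 5 listed genes of ligand shedding could be tested, with 3 of them under an unadjusted 0.05, against 16.0% of all genes. With the trend removed 0 were under it. ADAM10, the protease that cuts BTC loose, averaged 84.1 ± 20.1 CPM in NC libraries and 66.4 ± 4.41 in PRDM16 libraries (SD, n = 3; -0.34 ± 0.14 SE on the log2 scale, edgeR adjusted p = 0.298). Its NC values were 73.0, 107 and 72.0 CPM, with NC library 2 far above the others, and the change was -0.12 without that library and -0.08 with the trend removed. RHBDF1, an inactive rhomboid that brings ADAM17 to the cell surface, was at 61.3 ± 3.16 and 74.6 ± 1.55 CPM (0.28 ± 0.11, edgeR adjusted p = 0.298, and 0.06 with the trend removed). Without NC library 2 the change of RHBDF1 was 0.25. ADAM17, the main shedding enzyme of TGFA, AREG and HBEGF, was not among the 2 genes that the naming rule took from this list. It had 28.3 ± 3.49 and 25.3 ± 0.377 CPM (-0.16 ± 0.12, edgeR adjusted p = 0.468), with the change at 0.03 once the trend was removed and -0.06 without NC library 2.

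Of the 7 receptor brakes and turnover genes 1 was under an unadjusted 0.05, against 16.0% of all genes. The list median was -0.15 on the log2 scale (-0.02 with the trend removed). USP8, a deubiquitinase that acts on internalised EGFR, averaged 27.9 ± 5.56 CPM in NC and 22.6 ± 1.09 in PRDM16 libraries (SD, n = 3; -0.30 ± 0.14 SE, edgeR adjusted p = 0.302), with the change at -0.12 without NC library 2 and -0.02 with the trend removed. CBL, the ubiquitin ligase that sends EGFR to the lysosome, was at 94.1 ± 10.5 and 84.2 ± 5.22 CPM (-0.16 ± 0.12, edgeR adjusted p = 0.441), and its change was -0.10 without NC library 2 and -0.02 with the trend removed.

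Adaptors, which link the receptors to RAS, had the lowest median of the lists, -0.28 over 6 genes. Of these, 3 were under an unadjusted 0.05, all lower, against 16.0% of all genes, and 0 with the trend removed. The median was -0.07 with the trend removed and -0.13 without NC library 2. PTPN11, the phosphatase SHP2, was at 114 ± 24.7 and 90.6 ± 5.58 CPM (SD, n = 3; -0.33 ± 0.13 SE, edgeR adjusted p = 0.298). The exchange factor SOS2 was at 34.6 ± 6.62 and 27.4 ± 2.78 CPM (-0.33 ± 0.14, edgeR adjusted p = 0.298). Without NC library 2, their changes were -0.13 and -0.16, and with the trend removed -0.24 and -0.13.

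In the RAS and MAPK cascade 2 of 10 genes were under an unadjusted 0.05, 1 in each direction, against 16.0% of all genes. The list median was -0.10. The kinase MAP2K2 averaged 151 ± 18.0 CPM in NC and 179.5 ± 12.5 in PRDM16 libraries (SD, n = 3; 0.25 ± 0.12 SE, edgeR adjusted p = 0.306), and 0.0084 with the trend removed. Without NC library 2 the change of MAP2K2 was 0.18. The GC content of the MAP2K2 transcript is 63.0%.

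In the PI3K and AKT list 6 of 7 genes were tested, with a median of 0.02. There were 2 under an unadjusted 0.05, both higher, against 16.0% of all genes. PIK3R2, a regulatory subunit of PI3K, was at 107 ± 10.8 and 129.5 ± 8.21 CPM (SD, n = 3; 0.28 ± 0.11 SE, edgeR adjusted p = 0.298), and 0.05 with the trend removed. AKT1, the kinase below PI3K, was at 281 ± 15.9 and 334 ± 17.9 CPM (0.25 ± 0.11, edgeR adjusted p = 0.303), and 0.11 with the trend removed. Without NC library 2 the changes of PIK3R2 and AKT1 were each 0.21.

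Genes induced by MAPK signalling, the nearest readout of the pathway in RNA, had 0 of 16 under an unadjusted 0.05, against 16.0% of all genes. Their median was -0.02, the same as over all genes. With the trend removed 2 of the 16 were under 0.05, where 6.55% of all genes were. These were SPRY1 (0.38, unadjusted p = 0.0332 in edgeR) and EGR1 (-0.22, unadjusted p = 0.0464 in edgeR). ETV4, a transcription factor, averaged 51.2 ± 5.08 CPM in NC and 58.3 ± 2.53 in PRDM16 libraries (SD, n = 3; 0.19 ± 0.12 SE, edgeR adjusted p = 0.379), and 0.0051 with the trend removed. CCND1, cyclin D1, was at 208 ± 32.6 and 175 ± 21.0 CPM (-0.25 ± 0.13, edgeR adjusted p = 0.321), and at -0.47 with the trend removed. Without NC library 2 the changes of ETV4 and CCND1 were 0.14 and -0.20.

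**Figure D5:**
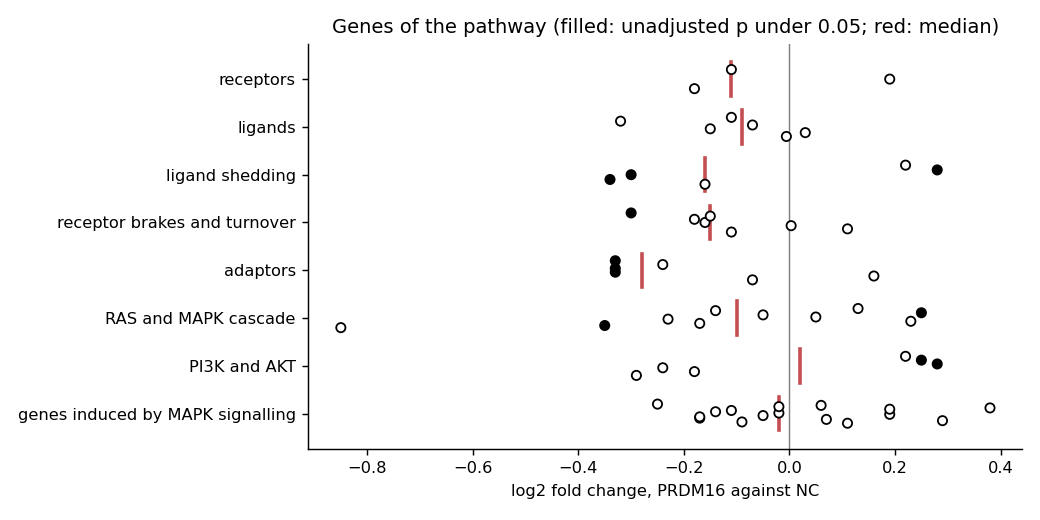
Log2 fold change (PRDM16 against NC) of every tested gene of the receptors, the ligands and the pathway lists, with filled points under an unadjusted p of 0.05 in edgeR and a red bar at the median of each list. The medians run from -0.28 in the adaptors to 0.02 in the PI3K and AKT list, and none of the receptor or ligand points is filled.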

How the data were processed

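RNA was taken with Trizol, captured on oligo(dT) beads and made into cDNA libraries, per the labels' protocols. For each of the 6 samples the authors deposited 1 table of 38648 genes whose columns are, per the file headers, raw counts, TPM and FPKM. Deposited counts are whole, the deposited TPM values sum to 1000000 per library, and the deposited FPKM values served only to check the library totals. Per the submitters' processing notes, the genome is hg38. The aligner, counting tool, annotation and strand setting were not given in the sources used here. Lines of 7 genes were broken in each table and were rejoined.

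Groups came from the sample titles. The 9 genes and the pathway and marker lists were chosen with earlier results of these data known. Counts were tested with the robust quasi-likelihood test of edgeR 4.0.16 (R 4.3.3) with TMM factors over all 6 libraries, after its default filter (minimum count 10, minimum total 15), which left 15381 genes, with Benjamini-Hochberg adjustment over all of them and a threshold of 0.05. The common biological coefficient of variation was 0.146. DESeq2 1.42.0 and voom in limma 3.58.1 were alternatives, as were other factors, no filter, a replicate block, summed places and leaving out each library. For the length and GC trend, each library's log2 CPM deviations were fitted on splines (5 degrees of freedom each) of log2 listed length and GC content of GENCODE v29 transcripts, found for 90.3% of tested genes, and used as offsets. Removing the trend together with leaving out NC library 2 was chosen after seeing the data. The edgeR script was tested on simulated data. Correlations used log2 CPM with a prior count of 2.

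The naming rule took all 9 genes and, from each other list, the 2 tested genes with the smallest p, and any that passed. Some genes of the lists are not reported here. It also took the 3 genes most correlated with the highest receptor and ligand. ADAM17, SPRY1, EGR1, HRAS and IER3 were named outside this rule, after their values were seen, and each family member under the filter is given by its counts. Because reads copied by PCR are not separate molecules, floors describe counting error alone. All pairs of libraries differed by more than sampling noise, and each counted as 1 sample.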

Additional observations from a re-analysis of the deposited data

How the results depend on the processing

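The count of 0 of the 9 genes past an adjusted p of 0.05 was found under each of the 14 alternatives run, as was the count of 0 of the other pathway genes. The count over all genes was not stable: against 10 in edgeR it was 48 with DESeq2, 4 with limma-voom, 107 with no count filter, 5 with the length and GC trend removed and 18 with places summed. Leaving out 1 library gave 7 to 173, the highest being 173 when NC library 3 was absent, then 59 for PRDM16 library 2 and 20 for PRDM16 library 1. In 13 of 126 combinations of a gene and an alternative the log2 fold change turned its sign, and the cause was not tested. These were HBEGF with limma-voom (0.003), with no count filter (0.0044) and with the replicate block (0.0021), EREG with the length and GC trend removed (0.06), NRG1 with the trend removed (0.07) and with NC library 2 also left out (0.02), and AREG under those 2 steps together (-0.12). The others came from leaving out 1 library, which gave -0.24 to 0.04 for ERBB3, -0.08 to 0.10 for HBEGF and -0.08 to 0.26 for AREG. EGFR, ERBB2, TGFA and BTC kept their sign in each of the 14 alternatives.

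Deviations of same-numbered libraries correlated at 0.0945, -0.104 and -0.131, so the numbers were not taken as pairs. The fit with the replicate block called 0 of the 9 genes, 0 of the other pathway genes and 10 of all genes. TMM-scaled counts per kilobase use the same lengths as TPM, so their order within a library is fixed and was not a check of it. The 3 libraries of a group limit the precision: the 95% intervals of EGFR and ERBB2 allow 0.750- to 1.04-fold and 0.977- to 1.34-fold. With 43 to 138 counts per library, BTC had the widest interval, 0.586- to 1.10-fold.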

Other observations

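Some genes of the pathway lists had counts that were split between places or that varied widely, and they are given as values. HRAS, named after its values were seen, had 992, 199 and 1816 counts in the NC libraries and 968, 468 and 400 in the PRDM16 libraries, from 6.91 to 87.2 CPM or 12.6-fold over the 6 libraries. Its listing on a scaffold had at most 2 counts. The log2 fold change of HRAS was -0.85 ± 1.16 (SE; edgeR adjusted p = 0.713). IER3, an early response gene, had 17 to 72 counts on its chromosome and 40 to 138 at the fullest of its listings on scaffolds. How reads matching several places were assigned is not given in the sources used here.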
